A study of Mus musculus with 10 samples.

Results

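Chemokines grouped as epithelial and tumour products were followed in lung tumours with and without deletion of Glut1, the glucose transporter encoded by Slc2a1. The 10 genes were chosen by symbol (Cxcl1, Cxcl2, Cxcl5, Cxcl12, Cxcl15, Cxcl16, Cxcl17, Ccl2, Ccl20 and Cx3cl1), out of 39017 genes in the count table, and each symbol stood on a single row. RNA sequencing had been performed on 10 libraries, 5 labelled Control and 5 labelled Glut1KO. All mice were on a C57BL6/J background and carried K-rasLSL-G12D/WT and p53Fl/Fl, the KP model, in which Cre activates oncogenic K-ras and removes p53. The Glut1KO mice (KPG1) were in addition labelled homozygous fl/fl for Glut1, whereas the genotype label of the controls reads heterozygous fl/wt and the design text calls them Glut1-WT. Cre came from an adenovirus (Ad5CC10-Cre) whose promoter is restricted to CC10-positive cells, the secretory club cells of the bronchioles, so that only infected cells of this kind and their progeny carry the deletions. Tumours were macrodissected after 20 weeks and 1 day and dissociated, and immune cells were removed with magnetic beads against CD45. The remaining fraction still held stromal and endothelial cells with intact alleles. All 5 controls were male, whereas Glut1KO replicates 1, 2 and 3 were female and replicates 4 and 5 male.

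Chemokines are small secreted proteins that guide leukocytes along concentration gradients through receptors coupled to G proteins, and are classed by the spacing of their first cysteines into CXC, CC and CX3C families. CXC members with a glutamate-leucine-arginine motif, such as Cxcl1, Cxcl2, Cxcl5 and Cxcl15, attract neutrophils, mostly through Cxcr2. In the lung, bronchiolar and alveolar epithelial cells are prominent sources, and many of these genes respond to inflammatory cytokines through the transcription factor NF-κB.

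Libraries held between 35.3 and 49.8 M counts. Levels are given as CPM, counts per M of the library total as scaled by TMM. Slc2a1 itself stood at 73.2 to 118 CPM in controls and at 60.3, 42.5, 34.6, 92.4 and 103 CPM in Glut1KO replicates 1 to 5, so that the libraries of the male replicates 4 and 5 labelled Glut1KO lay inside the control range, and every direction below rests on the labels. Epithelial identity was clear in all libraries, in which 12 epithelial markers (among them Epcam, Cdh1, Nkx2-1 and Sftpc) summed to between 27200 and 70920 CPM. The fraction was not purely epithelial. Summed over 8 genes each, endothelial markers stood at 106 to 545 CPM and mesenchymal markers at 106 to 453 CPM. Leukocyte transcripts were scarce. For 5 of 6 pan-leukocyte genes all Glut1KO libraries lay above all controls, as held for 0.798% of all genes. Of the 6, 0 passed the threshold with limma or edgeR (smallest limma adjusted p 0.230). DESeq2 called 5 of them higher in Glut1KO, beside 0.691% of all genes called higher by DESeq2. Ptprc, which encodes CD45 itself, had 2.76 ± 0.451 CPM in controls and 7.92 ± 2.19 CPM in Glut1KO (SD, n = 5 each). In such bulk samples fewer cells of a type and less RNA per cell cannot be told apart.

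Across the 15922 genes tested, limma with Benjamini-Hochberg adjustment placed 0 genes higher and 0 lower at an adjusted p under 0.05 (0% in each direction), and 0 of the 10 chemokines. The edgeR quasi-likelihood test also called 0 genes, and DESeq2 called 215 (0.691% of genes higher and 0.659% lower), among them 0 of the 9 chemokines to which it assigned an adjusted p. It assigned none to Cxcl1. At an unadjusted p under 0.05, limma marked 2 of the 10, Cxcl1 and Cxcl16, both lower in Glut1KO, against 4.02% of all genes lower at that level and 3.66% higher. Of the 10 log2 fold changes (Glut1KO minus Control) 4 were above 0 and 6 below, with a median of -0.06 beside -0.0049 over all genes tested, of which 50.7% were below 0, and they ranged from -1.43 for Cxcl1 to 0.48 for Cxcl12. The groups did not overlap for 1 of the 10, Cxcl1, where 1.06% of all genes were separated in that direction and 0.798% in the other.

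**Figure D1:**
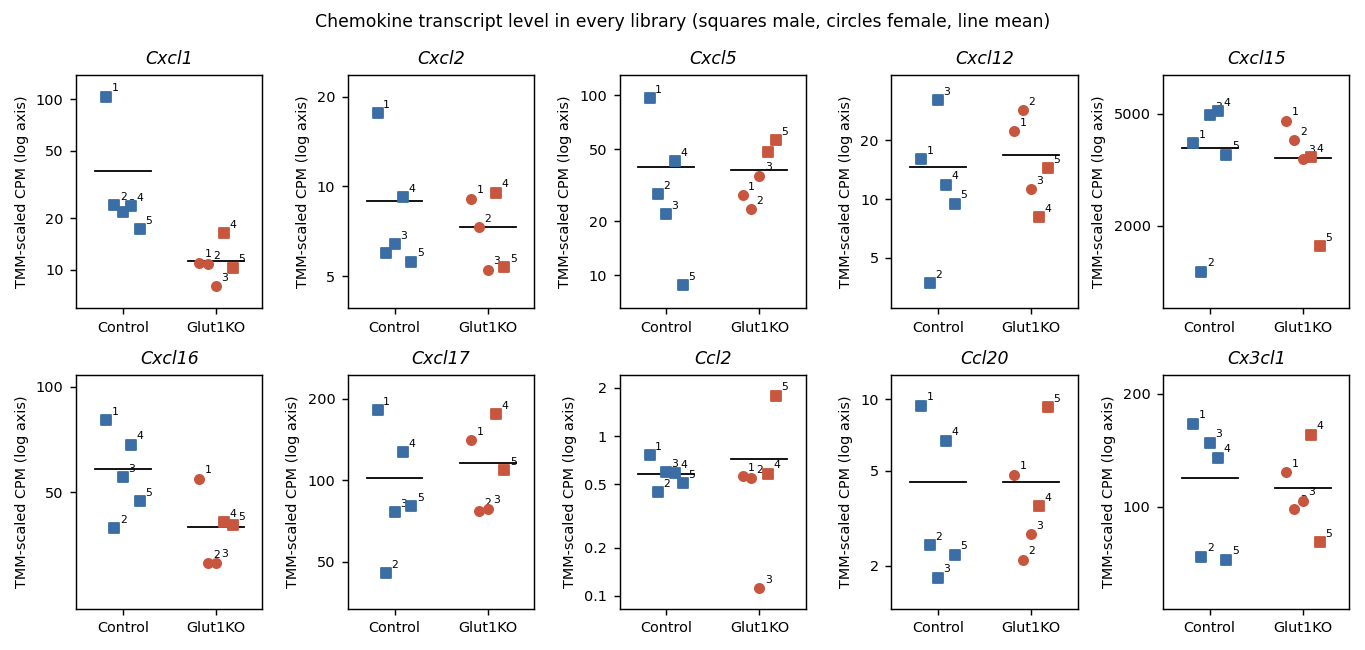
Level of each chemokine in every library, in TMM-scaled CPM on a log axis. Squares are male and circles female libraries, numbers are replicates and lines are group means; only in the Cxcl1 panel do all 5 Glut1KO libraries (7.97 to 16.3 CPM) sit below all 5 controls (17.2 to 103 CPM).

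Cxcl1 (ENSMUSG00000029380, chr5:90891241-90893115, plus strand, GRCm38), a neutrophil attractant acting on Cxcr2, had the log2 fold change farthest from 0 of the 10. It stood at 103, 23.9, 21.7, 23.6 and 17.2 CPM in control replicates 1 to 5. In Glut1KO replicates 1 to 5 it was at 10.98, 10.75, 7.97, 16.3 and 10.2 CPM. Every Glut1KO library, male or female, thus lay below every control, but the gap between the lowest control (17.2) and the highest Glut1KO library (16.3) was narrow. The means were 38.0 ± 36.7 and 11.2 ± 3.06 CPM (SD, n = 5 each). The log2 fold change of -1.43 (SE 0.49, 95% interval -2.51 to -0.36), a level 2.70-fold lower, missed the threshold after adjustment over all genes (limma, adjusted p 0.526). Permuting the group labels exhaustively (exact permutation test, two-sided) gave a p of 0.00794, the smallest that 5 against 5 allows. This test takes the libraries as independent, although their file names carry only 2 numbers in controls and 4 in Glut1KO, which may stand for mice. Control replicate 1 was far above the rest, and without it the log2 fold change was -0.995 (limma, adjusted p 0.421), with the groups still apart, as then held for 1.61% of all genes in that direction and 1.32% in the other. The 2 male Glut1KO libraries compared with the male controls gave -1.21 (limma, adjusted p 0.669), again without overlap, as 8.54% of all genes were in that direction and 8.53% in the other with so few libraries. Since all controls were male, a fit with sex as a covariate takes its group difference from the same male libraries and is no second comparison (-1.21, limma, adjusted p 0.564). These 2 Glut1KO libraries share a number in their names and may come from 1 mouse, and they are those with Slc2a1 inside the control range, which holds for every value below with sex as a covariate. With that covariate limma called 0 of the 10 chemokines, beside 0.00628% of all genes higher and 0.0126% lower. DESeq2 gave -1.75 and assigned the gene no adjusted p.

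Cxcl2 (ENSMUSG00000058427, chr5:90903871-90905938, plus strand), which acts on the same receptor and is the next protein-coding gene downstream of Cxcl1, did not separate the groups. Controls had 17.6, 5.96, 6.40, 9.21 and 5.59 CPM and Glut1KO libraries 9.08, 7.30, 5.26, 9.54 and 5.34 CPM. Apart from control replicate 1, the highest of all, both groups covered the same range. The log2 fold change was -0.19 (SE 0.33, 95% interval -0.92 to 0.54, limma, adjusted p 0.910), and it turned to 0.08 without control replicate 1.

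The sequences before the transcription starts of Cxcl1 and Cxcl2 are shown because this pair shares a match to the NF-κB consensus yet differed in how far the groups lay apart. Ccl20 is shown as the third chemokine with such a match and Cxcl15 as the most abundant one, without it. RefSeq promoters (GRCm38.p6) were found for 6 of the 10 genes, and the 250 bases before the start are given, 5′ to 3′ on the plus strand of each, with matches in capitals. They are the NF-κB consensus of 10 letters, read on both strands, in Cxcl1, Cxcl2 and Ccl20, and TATAAA, read on the gene's strand, in Cxcl15. The windows are chr5:90890995-90891244, chr5:90903649-90903898, chr1:83116516-83116765 and chr5:90794284-90794533.
Cxcl1: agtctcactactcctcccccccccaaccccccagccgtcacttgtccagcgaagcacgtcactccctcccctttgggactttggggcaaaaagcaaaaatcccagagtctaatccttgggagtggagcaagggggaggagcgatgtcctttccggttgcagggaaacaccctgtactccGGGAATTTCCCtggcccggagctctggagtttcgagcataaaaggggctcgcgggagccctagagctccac
Cxcl2: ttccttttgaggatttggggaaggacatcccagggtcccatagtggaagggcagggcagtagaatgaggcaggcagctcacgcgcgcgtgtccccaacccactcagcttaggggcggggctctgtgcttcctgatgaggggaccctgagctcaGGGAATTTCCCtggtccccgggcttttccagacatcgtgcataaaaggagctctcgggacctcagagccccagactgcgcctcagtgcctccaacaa
Ccl20: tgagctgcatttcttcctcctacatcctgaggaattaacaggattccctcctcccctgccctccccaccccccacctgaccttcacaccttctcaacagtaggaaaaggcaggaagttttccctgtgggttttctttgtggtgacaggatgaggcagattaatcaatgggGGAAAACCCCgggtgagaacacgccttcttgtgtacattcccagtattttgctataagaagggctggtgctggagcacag
Cxcl15: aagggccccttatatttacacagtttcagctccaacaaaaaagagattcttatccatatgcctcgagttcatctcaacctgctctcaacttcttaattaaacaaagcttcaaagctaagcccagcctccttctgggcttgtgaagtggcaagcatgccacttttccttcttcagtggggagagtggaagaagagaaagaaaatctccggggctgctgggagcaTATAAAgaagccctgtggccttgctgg
The stretch in capitals is identical in Cxcl1 and Cxcl2 and holds 2 overlapping matches in each, which begin 71 and 70 bases before the start in Cxcl1 and 97 and 96 bases before it in Cxcl2. The consensus was matched in 3 of the 6 windows, beside 7.25% of 32851 RefSeq promoters of this length. TATAAA was matched in 2 of the 6, Cxcl15 and Cx3cl1, beside 7.59% of all promoters. The starts used here are those of RefSeq. They differ from the gene positions given with each gene, and the windows of Cxcl1, Cxcl2 and Cx3cl1 reach past the gene starts given there. The TATAAA of Cx3cl1 (chr8:94771930-94772179) lies 6 to 1 bases before the RefSeq start, inside the gene as placed by those positions. TGANTCA, the core of AP-1 sites read on both strands, was matched in 0 of the 6, beside 6.75% of all promoters. A match describes these letters only and shows no binding.

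Cxcl5 (ENSMUSG00000029371, chr5:90759360-90761624, plus strand), a neutrophil attractant typical of lung epithelium, varied more within groups than between them. Its level was 96.4, 28.3, 21.9, 43.1 and 8.85 CPM in control replicates 1 to 5 and 27.9, 23.3, 35.7, 48.6 and 56.4 CPM in the Glut1KO replicates. The controls spanned the whole Glut1KO range. Limma gave a log2 fold change of 0.30 (SE 0.52, 95% interval -0.85 to 1.45, adjusted p 0.909), although the group means, 39.7 and 38.4 CPM, were in the opposite order. DESeq2 and edgeR placed the log2 fold change at -0.04 and -0.05. It was 0.84 with sex as a covariate and -0.13 without control replicate 5.

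Cxcl15 (ENSMUSG00000029375, chr5:90794534-90803067, plus strand), also known as lungkine, is a lung-restricted epithelial chemokine, and was the most abundant of the 10. Control replicates 1 to 5 had 3922, 1370, 4941, 5101 and 3569 CPM. Glut1KO replicates 1 to 5 had 4714, 4029, 3457, 3495 and 1693 CPM. Control replicate 2 and Glut1KO replicate 5 stood low, and the remaining libraries of both groups shared a range. Limma gave a log2 fold change of -0.08 (SE 0.37, 95% interval -0.90 to 0.75, limma, adjusted p 0.976). The value was -0.50 with sex as a covariate, and it turned to 0.17 without Glut1KO replicate 5.

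These 4 genes lie on 146.6 kb of chromosome 5 (chr5:90759360-90905938) with other CXC chemokine genes, all on the plus strand. The 7 genes tested there were Cxcl5, Ppbp, Pf4, Cxcl3, Cxcl15, Cxcl1 and Cxcl2, in that order along the chromosome. Cxcl3, a further Cxcr2 ligand between Pf4 and Cxcl15, was at 16.2 ± 10.7 CPM in controls and 11.7 ± 6.91 CPM in Glut1KO (SD, n = 5 each). It differed by -0.32 on the log2 scale (SE 0.53, limma, adjusted p 0.904). Pf4 and Ppbp, both best known from platelets, had log2 fold changes of 0.70 (SE 0.74) and -0.89 (SE 1.45). Cxcl1, given above, was the 1 gene of these 7 whose groups did not overlap, beside 1.06% of all genes lower and 0.798% higher without overlap.

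Among the chemokines that attract monocytes and lymphocytes, Ccl2 (ENSMUSG00000035385, chr11:82035571-82037453, plus strand), the Ccr2 ligand that recruits monocytes, was barely transcribed in this fraction. Controls had 0.759, 0.446, 0.593, 0.585 and 0.506 CPM, and Glut1KO libraries 0.560, 0.547, 0.112, 0.583 and 1.79 CPM, which stood for 5 to 79 counts per library. The controls and Glut1KO replicates 1, 2 and 4 were close together, whereas Glut1KO replicate 3 was the lowest and replicate 5 the highest of all. Its direction was not fixed: the log2 fold change was -0.12 with limma (SE 0.58, 95% interval -1.41 to 1.16, adjusted p 0.974) and 0.32 with both edgeR and DESeq2.

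Ccl20 (ENSMUSG00000026166, chr1:83116766-83119167, plus strand), an epithelial ligand of Ccr6 that attracts dendritic cells and lymphocytes, was at 9.39, 2.43, 1.78, 6.69 and 2.22 CPM in controls. Glut1KO libraries had 4.82, 2.12, 2.72, 3.56 and 9.28 CPM. High values occurred in each group, control replicate 1 and Glut1KO replicate 5 being almost equal, and the means were the same to 3 digits, 4.50 CPM. Between groups the log2 fold change was 0.15 (SE 0.54, 95% interval -1.03 to 1.33, limma, adjusted p 0.964). Its sign was not fixed: it was 0.75 with sex as a covariate and -0.12 with counts summed by name number. On leaving out single libraries it ranged from -0.16 to 0.48.

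Cxcl16 and Cx3cl1 are made as transmembrane proteins that hold leukocytes to the cell surface and are released by the proteases Adam10 and Adam17. Cxcl16 (ENSMUSG00000018920, chr11:70453983-70459984, minus strand), the ligand of Cxcr6 on T cells, had 80.1, 39.4, 55.2, 68.3 and 47.1 CPM in control replicates 1 to 5. In Glut1KO replicates 1 to 5 it had 54.5, 31.3, 31.4, 41.1 and 40.2 CPM. Glut1KO replicates 2 and 3 lay below all controls, and replicates 1, 4 and 5 within the control range. Means were 58.0 ± 16.3 and 39.7 ± 9.50 CPM (SD, n = 5 each). The difference on the log2 scale was -0.53 (SE 0.22, 95% interval -1.01 to -0.05, limma, adjusted p 0.616, exact permutation p 0.0714). The value was below 0 in all 20 alternative analyses run, from -0.66 to -0.40, and passed the threshold in none of them.

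For Cx3cl1 (ENSMUSG00000031778, chr8:94772009-94782427, plus strand), fractalkine, the groups were alike in range. Controls had 166, 73.8, 148, 135 and 72.3 CPM and Glut1KO libraries 124, 98.9, 104, 156 and 80.4 CPM. All Glut1KO values fell inside the control range, in which control replicates 2 and 5 were low. The log2 fold change was -0.03 (SE 0.27, 95% interval -0.63 to 0.56, limma, adjusted p 0.985). Transcripts of the sheddases were abundant in both groups, Adam10 at 227 and 214 CPM and Adam17 at 88.8 and 105 CPM in controls and Glut1KO, with log2 fold changes of -0.09 (SE 0.22) and 0.23 (SE 0.14). Mmp9, a matrix protease that can trim chemokines, was below 1 CPM in the mean of each group (-0.45, SE 0.80), and its sign turned with sex as a covariate (0.36).

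Cxcl17 (ENSMUSG00000060188, chr7:25400053-25412886, minus strand), a chemokine of mucosal epithelium, stood at 181, 45.4, 76.1, 127 and 80.1 CPM in control replicates 1 to 5 and at 140, 76.9, 78.6, 176 and 109 CPM in the Glut1KO replicates. All Glut1KO values fell inside the control range. On the log2 scale Glut1KO differed by 0.27 (SE 0.36, 95% interval -0.52 to 1.06, limma, adjusted p 0.880). This difference was 0.60 with sex as a covariate and 0.02 without control replicate 2.

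Cxcl12 (ENSMUSG00000061353, chr6:117168535-117181367, plus strand), the ligand of Cxcr4 and of the scavenger receptor Ackr3, is in many tissues a product of stromal and endothelial cells. Its grouping with epithelial products goes against its r of 0.954 with the endothelial markers over the 10 libraries. With the epithelial markers its r was 0.253, and the difference between these r was not tested. An r that low was not particular to Cxcl12, since Cxcl5 (0.0344), Ccl2 (0.0588) and Ccl20 (0.198) had lower values with the epithelial markers. For Cxcl12, controls had 16, 3.71, 32.2, 11.9 and 9.45 CPM, and Glut1KO libraries 22.3, 28.5, 11.3, 8.10 and 14.4 CPM. The lowest and the highest library were both controls, and the groups overlapped widely. The log2 fold change was 0.48 (SE 0.53, 95% interval -0.69 to 1.64, limma, adjusted p 0.851), and with sex as a covariate it was -0.0027. It was 0.0018 without control replicate 2 and 0.84 without control replicate 3.

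**Figure D2:**
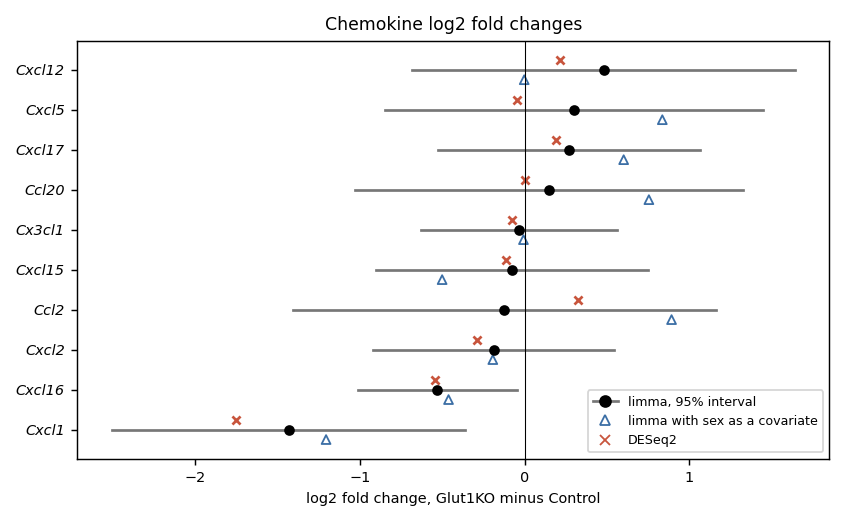
Log2 fold change, Glut1KO minus Control, for the 10 chemokines. Dots and lines are the limma value and its 95% interval, triangles the value with sex as a covariate and crosses the DESeq2 value; the intervals of Cxcl1 (-2.51 to -0.36) and Cxcl16 (-1.01 to -0.05) leave out 0, and neither gene passed adjustment over all genes.

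To order the chemokines by level, CPM were divided by the annotated exon length of each gene in kb. In controls Cxcl15 stood first at 1778 ± 704 CPM per kb (SD, n = 5), followed by Cxcl17 at 134 ± 69.8 and Cx3cl1 at 30.3 ± 11.1 CPM per kb. The ranges of these 3 did not overlap. Cxcl5, Cxcl1 and Cxcl16 came next, at 21.3, 20.3 and 19.2 CPM per kb, and did not differ from each other or from Cx3cl1 beyond their spread. Cxcl2 at 4.33, Ccl20 at 3.17 and Cxcl12 at 1.79 CPM per kb overlapped with each other, and Ccl2 was last at 0.508 CPM per kb, inside the range of Cxcl12. In Glut1KO the order was the same at the top, with Cxcl15 at 1635 ± 526, Cxcl17 at 153 ± 55.4 and Cx3cl1 at 28.6 ± 7.28 CPM per kb (SD, n = 5 each). Cxcl1 there stood at 6.00 CPM per kb (range 4.25 to 8.69), below all Glut1KO values of Cxcl16 (10.4 to 18.0), which it had overlapped in controls.

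**Figure D3:**
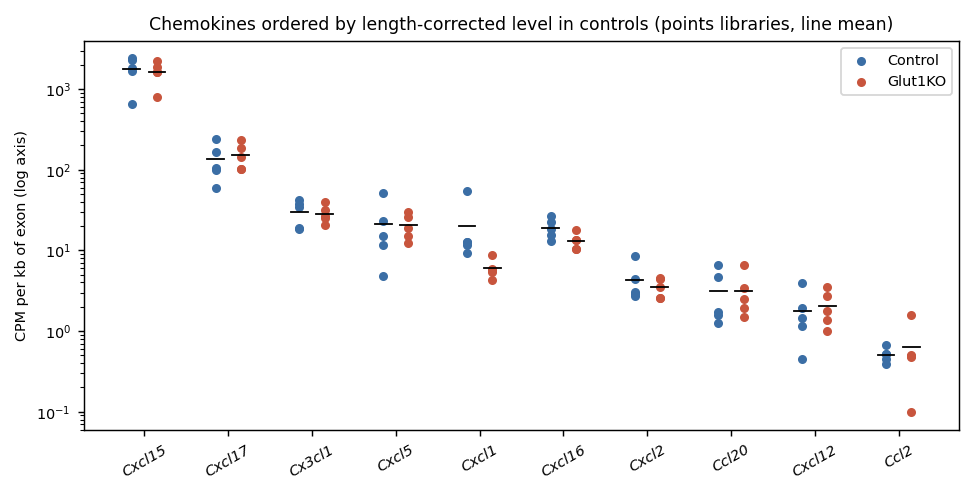
Chemokine level per kb of exon on a log axis, in CPM per kb, ordered by the control mean. Points are libraries and lines group means; Cxcl15, at 1778 CPM per kb in controls, stands apart from all others, and Cxcl1 is near Cxcl5 and Cxcl16 in controls and at 6.00 CPM per kb in Glut1KO.

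Single libraries carried much of the variation. Control replicate 1 had the highest level of all 10 libraries for 7 of the 10 chemokines (Cxcl1, Cxcl2, Cxcl5, Cxcl16, Cxcl17, Ccl20 and Cx3cl1), whereas it was the highest library for 10.7% of all genes. It was the highest control for Ccl2 as well, and for neither Cxcl12 nor Cxcl15. Control replicate 2 and Glut1KO replicate 3 were each the lowest library for 3 of the 10, beside 15.4% and 12.1% of all genes. The cytokine Tnf, a strong inducer of several of these genes, was also highest in control replicate 1, at 50.7 CPM beside 6.46 to 20.7 CPM in the other controls. Its part in the chemokine levels was not tested.

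Over the 10 libraries the chemokines were mostly related positively, with a Pearson r of log2 CPM above 0 in 40 of 45 pairs, but 0 pairs passed after Benjamini-Hochberg adjustment over the 45. For Cxcl1 and Cxcl16 r was 0.776 (permutation p 0.00477, adjusted p 0.113) and Spearman's rho 0.661 (permutation p 0.0431, adjusted p 0.329), and r was 0.478 without the 2 libraries farthest from the median of Cxcl1. For Cxcl5 and Ccl20 r was 0.773 (permutation p 0.00501, adjusted p 0.113) and rho 0.867 (permutation p 0.00199, adjusted p 0.0895), and r was 0.797 without the 2 farthest libraries. The neighbours Cxcl1 and Cxcl2 had an r of 0.75 (permutation p 0.0253, adjusted p 0.142) and a rho of 0.564 (permutation p 0.0963, adjusted p 0.34), and without the 2 farthest libraries r was 0.0169, so that the pooled relation rests on those. After the group means were subtracted the r of Cxcl1 and Cxcl2 was 0.898 (permutation p within groups 8e-04, adjusted p 0.036), which was the single pair of 45 to pass in that analysis. Within controls, where control replicate 1 was the highest for both genes, r was 0.94, and within Glut1KO it was 0.8. The r after subtraction of the group means was not computed without control replicate 1.

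Lists of markers of epithelial, ciliated, endothelial, mesenchymal and immune cells and of genes of dissociation stress, 9 lists in all, were then set against the chemokines, each list as the mean log2 CPM of its tested genes, which gave 90 relations of which 3 passed. Cxcl12 followed the endothelial markers (Pecam1, Cdh5, Kdr, Tie1, Tek, Cldn5, Vwf and Emcn). Their mean was lowest in control replicate 2 at 3.27 and highest in Glut1KO replicate 2 at 5.72, where Cxcl12 was at 3.71 and 28.5 CPM. Pearson's r was 0.954 (permutation p 7e-05, adjusted p 0.0063) and rho 0.927 (permutation p 0.00044, adjusted p 0.0198). The r was 0.928 without the 2 farthest libraries and 0.974 after subtraction of the group means. Against the epithelial markers the r of Cxcl12 was 0.253 (permutation p 0.485, adjusted p 0.889), its rho 0.0545 (permutation p 0.893, adjusted p 0.98) and its r without the 2 farthest libraries 0.00404. Cxcl2 and Cx3cl1 followed the mean of the 5 tested genes of the neutrophil list, S100a8, S100a9, Csf3r, Retnlg and Ltf, with r of 0.932 (permutation p 0.00024, adjusted p 0.0108) and 0.877 (permutation p 0.00076, adjusted p 0.0228). Spearman's rho was 0.855 (permutation p 0.00295, adjusted p 0.0885) and 0.927 (permutation p 0.0004, adjusted p 0.0198), and r without the 2 farthest libraries was 0.859 and 0.842. This list does not establish neutrophils, since Ly6g, Camp and Mmp8 were too low to be tested. Each of the 5 genes weighs alike in the mean, whatever its level, and Ltf, lactoferrin, is also made by airway glands. Libraries that may share an animal are not independent, and these p-values take them as if they were.

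**Figure D4:**
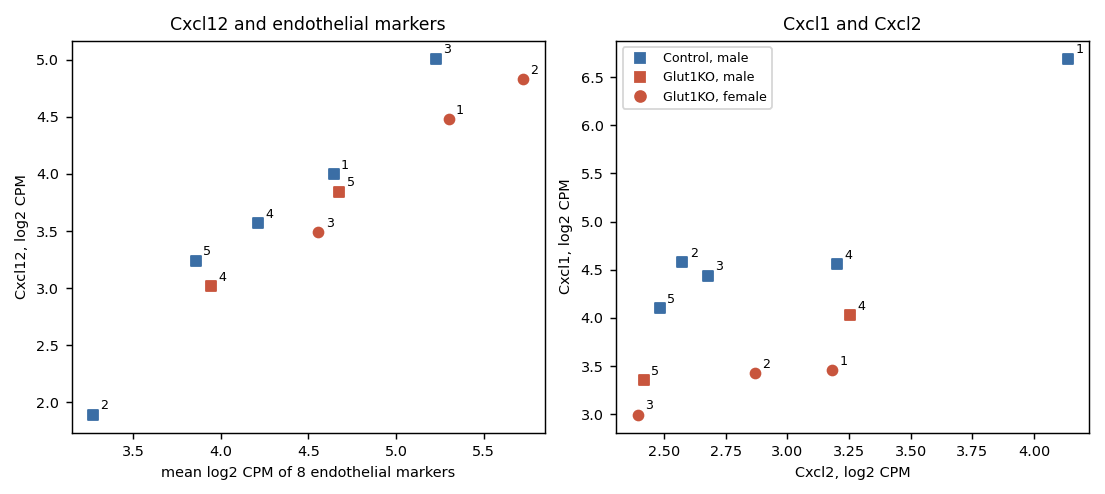
Left, Cxcl12 (log2 CPM) against the mean log2 CPM of 8 endothelial markers in the 10 libraries, which lie along one line (r 0.954) with both groups mixed. Right, Cxcl1 against Cxcl2 (log2 CPM), where the Glut1KO libraries lie below the controls at similar Cxcl2; colours are groups, squares male, circles female, and numbers replicates.

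By likeness of pattern, measured as Pearson's r of log2 CPM over the 10 libraries among 13858 genes with a mean of at least 1 CPM, the genes nearest to Cxcl1 were Krt15 (r 0.958) and Itgb4 (0.954), and those nearest to Cxcl2 were Trp63 (0.952) and Zbtb7c (0.944). Cxcl12 was nearest to Adcy4 (0.990) and Fyn (0.987), and Cxcl15 to Ifi47 (0.989) and Lcn2 (0.964). Cxcl5 was nearest to Fer1l4 (0.948) and Plac8 (0.938), Cxcl16 to Gosr2 (0.942) and Rab1 (0.937), and Cxcl17 to Grasp (0.964) and Gm18284 (0.945). For Ccl20 the nearest were Tex2 (0.914) and Ttll7 (0.913), for Cx3cl1 Acot11 (0.952) and Sdf4 (0.942), and for Ccl2 Recql (0.919) and Ptbp3 (0.900). These values are the highest of many and are given as a description.

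Receptors of the chemokines were measured at low levels in the CD45-depleted fraction. Of 18 chemokine receptors 7 were tested and 0 passed the threshold with limma, 6 having log2 fold changes above 0, with a median of 0.77. Cxcr4, the receptor of Cxcl12, had 6.45, 6.83, 5.41, 5.01 and 4.12 CPM in controls and 14.0, 22.5, 13.4, 7.79 and 10.9 CPM in Glut1KO libraries. All Glut1KO libraries lay above all controls, as held for 0.798% of all genes, with a log2 fold change of 1.25 (SE 0.29, limma, adjusted p 0.351). DESeq2 placed Cxcr4 past the threshold (adjusted p 0.00225), beside 0.691% of all genes called higher by DESeq2. With sex as a covariate its log2 fold change was 0.77 (limma, adjusted p 0.417). Cxcr2, the receptor of the neutrophil attractants, had a log2 fold change of -0.23 (SE 0.79, limma, adjusted p 0.961), and its sign turned in 7 of 20 alternatives, DESeq2 and edgeR among them. Cxcr6, the receptor of Cxcl16, and Ccr6, the receptor of Ccl20, were too low to be tested. Most of these receptors are carried by leukocytes, and the 6 pan-leukocyte genes had a median of 1.00 on the log2 scale, 0 of them past the threshold with limma. Cd53 was the 1 pan-leukocyte gene whose groups overlapped (0.35 with limma, -0.10 with DESeq2 and -0.11 with edgeR). The part of leukocytes in the receptor values was not tested. The 4 atypical receptors tested, scavengers of chemokines, all had log2 fold changes above 0 (0.34 to 0.73) and 0 passed, with Ackr2, which scavenges inflammatory CC chemokines, at 0.47 (SE 0.33).

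Of 30 other chemokines 14 were tested, 7 with log2 fold changes above 0 and 7 below, and 0 passed with limma. Ccl6, a chemokine of myeloid cells, stood at 3.32, 1.91, 2.37, 3.41 and 1.18 CPM in controls and at 4.87, 9.30, 3.98, 7.85 and 7.88 CPM in Glut1KO libraries. The groups did not overlap, as held for 0.798% of all genes in that direction (2.83-fold higher in Glut1KO by limma, SE 0.35 on the log2 scale, adjusted p 0.351, DESeq2 adjusted p 0.00631). In the opposite direction the interferon-induced Cxcl10 was lower without overlap, as held for 1.06% of all genes (log2 fold change -1.86, SE 0.29, limma, adjusted p 0.230), which DESeq2 placed past the threshold (adjusted p 1.48e-06). Ccl9, related to Ccl6, was the third of the 14 without overlap, at 0.852 ± 0.312 CPM in controls and 1.90 ± 0.732 CPM in Glut1KO (SD, n = 5 each, limma, adjusted p 0.449).

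Inducers and regulators of chemokine transcription were examined from lists of cytokines with their receptors and of NF-κB and mRNA decay genes. Of 15 cytokine and receptor genes tested 6 had log2 fold changes above 0 and 9 below, and 0 passed with limma. Il1b was at 6.49 CPM in controls and 13.1 CPM in Glut1KO (log2 fold change 0.98, SE 0.30, limma, adjusted p 0.454), whereas Tnf was at 50.7, 6.48, 10.3, 20.7 and 6.46 CPM in controls and at 6.5, 3.52, 3.93, 6.59 and 2.63 CPM in Glut1KO libraries, with overlap and with control replicate 1 far above the rest (log2 fold change -1.60, SE 0.64, limma, adjusted p 0.608, DESeq2 adjusted p 0.0243). Among the 16 NF-κB and mRNA decay genes 15 had log2 fold changes below 0 with a median of -0.32, and 0 passed with limma. Nfkbia, the inhibitor that NF-κB itself induces, had 132, 99.6, 95.1, 107 and 102 CPM in controls and 67.0, 88.8, 68.8, 59.6 and 64.4 CPM in Glut1KO libraries. It was the 1 gene of this list without overlap, being lower, as held for 1.06% of all genes. Its log2 fold change was -0.62 (SE 0.13, limma, adjusted p 0.314). DESeq2 called it (adjusted p 0.00842), beside 0.659% of all genes called lower by DESeq2. Zfp36l1, which promotes decay of mRNAs rich in AU elements, was the 1 gene of this list above 0, with a log2 fold change of 0.13 (SE 0.15).

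Genes of the stress response to dissociation, to which immediate-early transcription factors belong, lay in the same direction as Cxcl1. Of the 16 tested, 15 had log2 fold changes below 0 (median -0.32), 3 (Jun, Atf3 and Dusp1) lay below all controls in every Glut1KO library, as held for 1.06% of all genes, and 0 passed with limma. DESeq2 called 3, Jun, Atf3 and Ier3 (adjusted p 0.0236, 0.000274 and 0.0215), beside 0.659% of all genes called lower by DESeq2. Limma with sex as a covariate called Dusp1 (adjusted p 0.0422), beside 0.0126% of all genes called lower in that fit. Atf3 was at 310 CPM in controls and 160 CPM in Glut1KO (log2 fold change -0.94, SE 0.17, limma, adjusted p 0.230). Summed over the list, controls had 6541 to 8816 CPM and Glut1KO libraries 4369 to 7020 CPM. Of the 6 ciliated cell markers, all had log2 fold changes below 0 (median -0.95), and of the 12 epithelial markers 5 were above 0 and 7 below (median -0.05). Endothelial markers were above 0 in 8 of 8 (median 0.67), mesenchymal markers in 3 of 8 (median -0.15) and macrophage markers in 5 of the 7 tested (median 0.85). In each of these lists 0 genes passed the threshold with limma and edgeR. DESeq2 called 2 macrophage markers, C1qa and C1qb (adjusted p 0.0413 and 0.0281), beside 0.691% of all genes called higher by DESeq2. C1qa was the 1 macrophage marker whose groups did not overlap, as held for 0.798% of all genes in that direction. C1qa and C1qb went from 0.88 and 0.99 with limma to 0.41 and 0.53 with sex as a covariate. With sex as a covariate 5 of the 8 endothelial markers were above 0, with a median of 0.08 and a range of -0.09 to 0.43, and the medians of the mesenchymal and macrophage lists were 0.09 and 0.35. The same covariate gave medians of -1.81 for the ciliated and -0.70 for the stress list. Of the neutrophil markers 3 of the 5 tested were above 0 (median 0.25). Ltf, the most abundant of them, was at 4765 ± 4419 CPM in controls and 555 ± 310 CPM in Glut1KO (SD, n = 5 each), with overlap, a log2 fold change of -2.39 (SE 0.98, limma, adjusted p 0.616, DESeq2 adjusted p 0.00639, counts summed by name number, limma adjusted p 0.0108). Retnlg, a granulocyte product, had 0.74 (SE 0.75). Of 8 lymphocyte markers 2 were tested, Cd4 and Cd79a, at -0.77 (SE 0.41) and -0.61 (SE 0.44). Foxj1, the master regulator of motile cilia, was at 21.9 ± 20.2 CPM in controls and 3.20 ± 2.31 CPM in Glut1KO (SD, n = 5 each), with overlap. Its log2 fold change was -2.23 (SE 1.03, limma, adjusted p 0.658). It was the ciliated gene that DESeq2 called (adjusted p 0.00764), beside 0.659% of all genes called lower by DESeq2. Scgb3a2, a secretory protein of club cells, was at 32.6 ± 35.1 and 9.17 ± 5.47 CPM (SD, n = 5 each), also with overlap. Nkx2-1, the transcription factor of lung epithelial identity, was at 188 ± 40.6 and 235 ± 32.1 CPM (SD, n = 5 each). Sftpc, surfactant protein C of alveolar type 2 cells, had a log2 fold change of 0.25 (SE 0.42) that turned to -0.19 with sex as a covariate, and Tppp3, abundant in ciliated cells, had -0.70 (SE 0.76). Among endothelial markers Cldn5, a tight junction protein, had 0.71 (SE 0.31) and Vwf, von Willebrand factor, 0.55 (SE 0.31). Among mesenchymal markers the matrix proteoglycans Lum and Dcn had 0.57 (SE 0.66) and -0.34 (SE 0.38), and the collagen gene Col3a1 -0.20 (SE 0.62), which turned to 0.80 with sex as a covariate. Among macrophage markers the complement gene C1qb had 0.99 (SE 0.29) and the lysozyme gene Lyz2, also made by alveolar type 2 cells, -0.70 (SE 0.63). Btg2, an antiproliferative gene, was the 1 stress gene above 0, at 0.02 (SE 0.14), and -0.21 with sex as a covariate. Over the 10 libraries 0 of the 9 relations of Cxcl1 to these lists passed after adjustment, with r from -0.566 for the macrophage to 0.724 for the neutrophil list (permutation p 0.107 and 0.0194, adjusted p 0.451 and 0.282). For the stress list r was 0.502 (permutation p 0.14, adjusted p 0.466), rho 0.491 (permutation p 0.153, adjusted p 0.55), r without the 2 farthest libraries 0.629, and r after subtraction of the group means -0.0547.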

How the data were processed

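Stranded mRNA libraries were aligned by the authors to mouse build mm10 with HISAT2 after adapter trimming with cutadapt, and the submitters' processing notes name featureCounts 1.4.4. The annotation release and the use of strand are not given in the sources used here. The deposited files hold raw counts per Ensembl gene with no normalization. The combined table equalled the 10 single files (0 differing values). The deposited log2 table was not used. Positions and exon lengths came from GENCODE M21 (GRCm38), which held 96.4% of the gene identifiers. Symbols missing from the count table were matched through it.

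Genes were kept by filterByExpr of edgeR 4.0.16 (minimum count 10, minimum total 15), which left 15922, the 10 chemokines included. Counts were scaled by TMM, given precision weights by voom (prior count 0.5), and analysed with limma 3.58.1 in R 4.3.3, with the group as the only term, as the methods of the study name these tools. Adjustment followed Benjamini and Hochberg across all genes tested, at a threshold of 0.05. The fit was tested on simulated data. A two-sided exact permutation test was added for single genes. Correlations used 100000 permutations.

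Replicates are libraries whose file names carry 2 numbers in controls and 4 in Glut1KO, 0 of them shared between the groups, which may stand for mice, so batch by that number and group cannot be told apart, and p-values may measure partly technical spread. Alternatives were edgeR's quasi-likelihood test, DESeq2 1.42.0, other scalings (RLE size factors, library totals) and filters, leaving out each library, a replicate block, sex, and counts summed by that number. Genes named are the 10 chemokines, from each list the tested gene with the smallest p in each direction and the marker of highest mean, the genes of the chromosome 5 cluster, the 2 genes of most like pattern, and Slc2a1. Other genes named were chosen after their values were seen. The chemokines and lists were chosen with earlier results of these data known. The comparisons with marker lists and of single libraries, and the male and leave-out counts of separated genes, were added after seeing the values.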

Additional observations from a re-analysis of the deposited data

Results flagged for a closer look

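Within each group of 5 libraries, the gap between the extreme library and its nearest neighbour was divided by the range of the group, with a limit of 0.71, for the 10 chemokines, Slc2a1 and the summed marker lists. Of 38 groups of values examined 2 exceeded the limit, where chance gives about 1.9. Cxcl1 in control replicate 1 was at 103.5 CPM beside 17.2 to 23.9 CPM in the other controls (gap 0.922 of the range). Ccl2 in Glut1KO replicate 5 was at 1.789 CPM beside 0.112 to 0.583 CPM in the other Glut1KO libraries (gap 0.719 of the range), at no more than 79 counts.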

How the results depend on the processing

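Across the 20 alternatives Cxcl1 stayed below 0 (-1.76 to -0.995), as did Cxcl16 (-0.66 to -0.40), Cxcl17 stayed above 0 (0.02 to 0.60), and 0 chemokines passed the threshold in the alternatives that gave them an adjusted p, which DESeq2 did not give for Cxcl1 nor the filter on mean CPM for Ccl2. Of the 10, Cxcl1 was the 1 separated between groups also without control replicate 1 (1.61% of all genes lower without overlap) and in males only (8.54%). With the replicate number as a block 0 genes were called and Ccl2 turned to 0.053. Same-numbered libraries deviated together with r between -0.13 and 0.20 across genes, and libraries did not each correlate best with their own number. These r showed no pairing over all genes but cannot exclude one for single genes. The block lowered the SE of Cxcl16 from 0.22 to 0.13 and of Cxcl17 from 0.36 to 0.18. It raised the SE of Cxcl5 from 0.52 to 0.54 and of Cxcl12 from 0.53 to 0.57. Genes called went from 0 to 215 with DESeq2, 3 with sex as a covariate, 1 in males only, 2 with counts summed by name number and 0 to 1 on leaving out a library (1 without control replicate 3). DESeq2 called 2 other chemokines, 1 receptor, 1 inducer, 1 NF-κB gene, 1 ciliated, 1 neutrophil, 2 macrophage and 5 pan-leukocyte markers and 3 stress genes. Over all genes DESeq2 called 0.691% higher and 0.659% lower. The summed counts called 1 neutrophil marker. The sex covariate gave 1 stress gene, beside 0.0126% of all genes called lower with it. Signs turned for Cxcl5 (-0.0496 with edgeR, -0.0449 with DESeq2, -0.0779 with summed counts), Cxcl12 (-0.0027 with sex as a covariate, -0.000398 in males), Ccl2 (0.32 with edgeR and DESeq2, 0.89 with sex as a covariate, 0.91 in males), Ccl20 (-0.12 with summed counts) and Slc2a1 (0.0613 with sex as a covariate, 0.0605 in males). On leaving out single libraries Cxcl2 ranged from -0.31 to 0.0799, Cxcl5 from -0.13 to 0.71, Cxcl12 from 0.0018 (without control replicate 2) to 0.84 (without control replicate 3), Cxcl15 from -0.39 to 0.17, Ccl2 from -0.57 to 0.42, Ccl20 from -0.16 to 0.48 and Cx3cl1 from -0.19 to 0.11. Related pairs of chemokines past adjustment numbered 0, and 1 after subtraction of the group means. The cause of these shifts was not tested. Values with sex as a covariate and in males rest on the same 2 male Glut1KO libraries, which share a name number. Counts limit precision for Ccl2 (5 to 79 per library).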

Other observations

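The ratio of Cxcl1 to Cxcl2 in CPM within a library was 5.88, 4.02, 3.39, 2.56 and 3.07 in control replicates 1 to 5 and 1.21, 1.47, 1.52, 1.71 and 1.92 in Glut1KO replicates 1 to 5. The lowest control thus exceeded the highest Glut1KO library. The ratio was looked at after Cxcl1 had been seen to separate the groups, and is a description without a test.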
